A study of Mus musculus with 16 samples.

Results

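The accessibility of 9 genes of glycolysis and pyruvate use was followed through mouse spermatogenesis by ATAC-seq, in which the Tn5 transposase inserts sequencing adapters into open DNA. The genes were Slc2a3, Hk1, Aldoart1, Gapdh, Gapdhs, Pgk2, Ldha, Ldhc and Pdha2, taken by name out of 21299 genes with an annotated start. They were chosen with the presence and height of their peaks in these same libraries known, so stage and genotype patterns of the 9 genes are given as descriptions with no test. Every peak that the authors assigned to one of the genes was collected, and a promoter peak was one that overlapped 1 kb on either side of a transcription start.

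Glycolysis splits glucose into pyruvate, which the pyruvate dehydrogenase complex feeds into mitochondrial respiration or lactate dehydrogenase turns into lactate. Spermatocytes and round spermatids are known to use lactate supplied by Sertoli cells, while the sperm tail runs a glycolytic pathway built from its own isoenzymes. Several of these isoenzymes are encoded by genes expressed in germ cells, some of them intronless copies of broadly expressed parent genes. Pgk2 and Pdha2 are autosomal copies of the X-linked genes Pgk1 and Pdha1, and the X chromosome is silenced in pachytene spermatocytes.

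The study purified 4 kinds of cells from testes of C57BL/6 mice, either wild type or Scml2 knockout (Scml2-KO), with 2 libraries per genotype and stage and 16 in all. Spermatogonia were taken in 2 fractions, Thy1+ (Thy1), which includes the stem and progenitor pool, and c-Kit+ (cKit), which is differentiating, at postnatal day 7 (P7). Pachytene spermatocytes (PS), in meiotic prophase, and round spermatids (RS), after meiosis, were taken from adults, so stage and age cannot be told apart between the P7 and the adult cells. SCML2 is a germline protein related to Polycomb, the knockout allele is not described in the sources used here, and the labels do not tie replicates to different animals. Each p-value thus reflects variation among these libraries, which may be technical.

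Each library had its own peak list, holding 17813 to 164060 peaks, and replicate 1 had the longer list in every group. The number of reads is unknown, and where no peak is listed, none reached the threshold of the peak caller, which does not show closed chromatin. In a bulk library, fewer open cells and less open chromatin per cell cannot be told apart. Of 7 meiotic prophase markers, P7 libraries had promoter peaks at 0 to 2 and adult libraries at 6 or 7, and of 9 spermatid markers at 0 to 2 and at 7 to 9. Of 8 markers of spermatogonia, P7 libraries had peaks at 5 to 8 and adult libraries at 4 to 8, so these did not separate the stages. Of 4 germ line markers, P7 libraries had peaks at 1 to 4 and adult libraries at all 4. Of 33 markers of Sertoli, peritubular, endothelial, Leydig and immune cells, P7 libraries had promoter peaks at 9 to 25 and adult libraries at 0 to 11. Somatic markers therefore moved with the contrast of P7 against adult cells, and their part in the values below was not tested. In P7 wild-type libraries 16 to 24 of these 33 markers had peaks, and in P7 Scml2-KO libraries 9 to 25.

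Among the 9 genes, the germ cell isoenzymes Pgk2, Pdha2, Ldhc, Gapdhs and Aldoart1 had promoter peaks in more adult than P7 libraries. Slc2a3, a glucose transporter, had them in fewer adult libraries, and Ldha, Gapdh and Hk1 had them in all 16. A higher adult count was found for 5 of 9 genes, against 16.1% of all 21299 genes, and a peak in all 16 libraries for 3 of 9, against 39.1% of all genes. These shares are given beside the counts only, since the counts chose the genes.

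**Figure D1:**
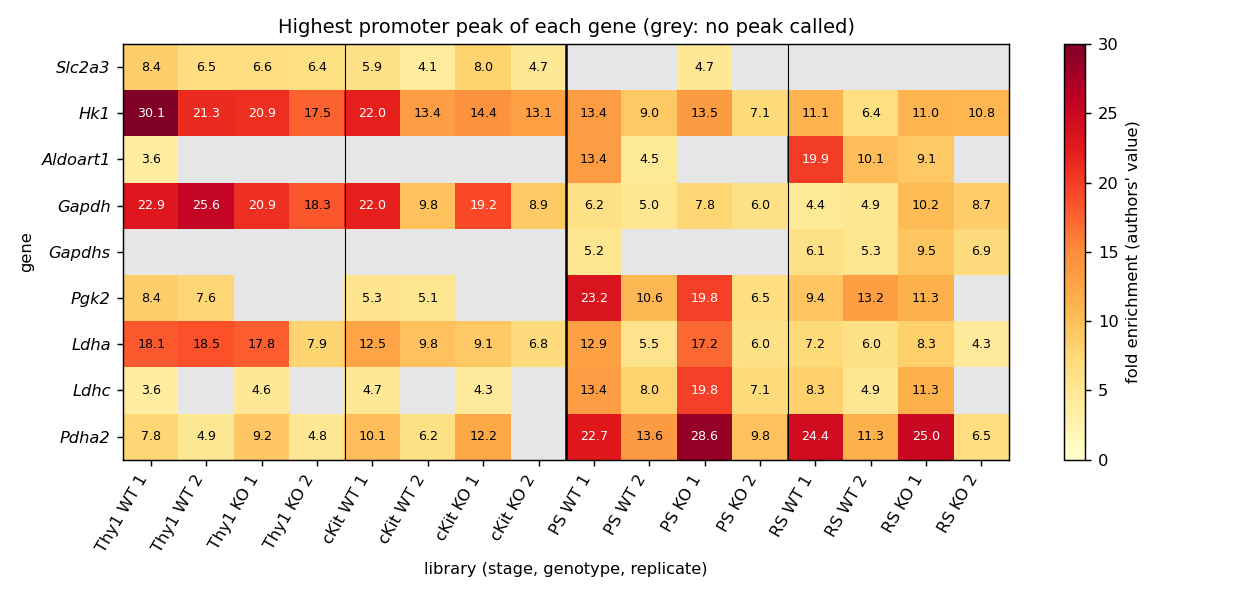
Fold enrichment of the highest promoter peak (colour and number, the authors' ratio of pileup to background) for the 9 genes (vertical axis) in the 16 libraries (horizontal axis); grey cells had no peak. Gapdhs is grey in all 8 P7 libraries, Slc2a3 in 7 of 8 adult libraries, and Hk1, Gapdh and Ldha are coloured throughout.

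Genome sequence before the starts of 3 of these isoenzymes and of the upstream start of Hk1 is shown because peaks at these places carry the stage patterns described below. RefSeq's promoter table for GRCm38.p6 held 7 of the 9 genes, not Aldoart1 or Slc2a3. Each line gives the 250 bases before a RefSeq start, 5′ to 3′ on the gene's strand. In Pgk2 (chr17:40208610-40208859, minus strand), capitals mark the letters CCAAT and GGCGGG. In Ldhc (chr7:46861013-46861262, plus strand), they mark GGCGGG and TGACG. In the upstream start of Hk1 (chr10:62379909-62380158, minus strand), they mark TGACATCA. In the first (chr7:30739408-30739657) and the second start of Gapdhs (chr7:30743682-30743931, both minus strand), they mark the part of a run of 107 bases common to both windows that falls before the start, 57 and 81 bases long.
Pgk2: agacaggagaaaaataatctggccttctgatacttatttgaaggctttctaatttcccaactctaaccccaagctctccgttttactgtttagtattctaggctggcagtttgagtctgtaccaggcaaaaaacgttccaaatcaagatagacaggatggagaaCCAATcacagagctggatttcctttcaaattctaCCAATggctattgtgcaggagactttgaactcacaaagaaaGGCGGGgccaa
Ldhc: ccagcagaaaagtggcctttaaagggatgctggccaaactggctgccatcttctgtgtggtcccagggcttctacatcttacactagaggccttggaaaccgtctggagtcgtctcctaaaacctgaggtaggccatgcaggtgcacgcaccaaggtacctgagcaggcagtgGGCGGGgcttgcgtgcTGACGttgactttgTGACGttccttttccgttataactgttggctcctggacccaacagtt
Hk1 upstream start: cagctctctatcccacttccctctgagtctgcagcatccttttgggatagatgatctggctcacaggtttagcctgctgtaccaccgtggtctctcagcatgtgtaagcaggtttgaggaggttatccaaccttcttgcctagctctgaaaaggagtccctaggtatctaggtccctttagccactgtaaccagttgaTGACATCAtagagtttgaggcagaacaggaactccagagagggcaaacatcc
Gapdhs first start: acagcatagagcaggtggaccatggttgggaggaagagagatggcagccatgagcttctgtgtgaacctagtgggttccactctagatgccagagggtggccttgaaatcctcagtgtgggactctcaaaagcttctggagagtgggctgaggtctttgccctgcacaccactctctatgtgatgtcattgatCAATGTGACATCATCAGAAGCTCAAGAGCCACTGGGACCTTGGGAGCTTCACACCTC
Gapdhs second start: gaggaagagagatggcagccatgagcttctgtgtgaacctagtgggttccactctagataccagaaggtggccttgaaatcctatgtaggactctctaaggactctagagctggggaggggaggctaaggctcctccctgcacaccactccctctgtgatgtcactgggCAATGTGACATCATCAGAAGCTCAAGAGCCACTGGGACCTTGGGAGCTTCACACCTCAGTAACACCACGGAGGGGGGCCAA

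The motifs were picked with these sequences in view and searched on both strands. CCAAT, the letters bound by NF-Y, occurred in Pgk2 at 82 and 48 bases before the start. A GGCGGG box, of the kind bound by Sp factors, lay 6 bases before the Pgk2 start and 72 before that of Ldhc. Ldhc also held TGACG, the core of the cAMP response element, at 57 and 43 bases. TGACATCA lay 45 bases before the upstream start of Hk1, and in both Gapdhs windows it occurred 2 times, at 63 and 45 bases before the first start and at 87 and 69 before the second. Among 32851 RefSeq windows of 250 bases, 33.8% held CCAAT, 32.5% GGCGGG, 17.8% TGACG and 2.93% TGACATCA, so the first 3 strings are common. A match of letters is a description and not a binding site.

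CpG content differed between some germ cell copies and their parent genes, and between starts of one gene. In windows of 300 bases (250 before to 50 after the start) the number of CpG dinucleotides was 4 in Pgk2 and 24 in Pgk1, and 4 in Pdha2 and 21 in Pdha1. It was 9 and 3 at the 2 RefSeq starts of Ldhc and 30 and 13 at those of Ldha, and 1 and 4 at the 2 starts of Gapdhs against 12 in Gapdh. The start of Hk1 with peaks in all libraries had 20 and its upstream start 1. Aldoart2 had 9, within the range of 0 to 24 at the starts of Aldoa. GC content was close for some of these pairs, at 54.0% and 55.7% for the starts of Gapdhs and 56.7% for Gapdh, and at 53.3% and 57.3% for Ldhc beside 67.3% and 56.7% for Ldha. The median number of CpG over all windows was 7.

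Slc2a3 encodes GLUT3, a high-affinity glucose transporter, and its start lies on chromosome 6 at 122742745 (mm10, minus strand). The highest promoter peak in Thy1 cells reached 8.44 and 6.54 times the background in wild type and 6.62 and 6.36 times in Scml2-KO. In cKit cells the fold enrichment was 5.93 and 4.11 in wild type and 7.99 and 4.72 in Scml2-KO. In the adult cells, 1 library of 8 had a peak, PS Scml2-KO replicate 1, at 4.68. The P7 values were thus low, but present in 8 of 8 libraries of both genotypes, and promoter peaks in at least 7 more P7 than adult libraries were found for 2.16% of all genes. With every list limited to its 17813 most significant peaks, 2 P7 libraries, both Scml2-KO, and 0 adult libraries had a Slc2a3 promoter peak.

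The highest Slc2a3 summit lay between 64 bp before and 850 bp after the start in P7 cells, at a median of 444.5 bp after it. Another site stood 18.4 kb upstream of the start, at chr6:122760744-122761474, with a peak in 8 of 8 P7 and 0 of 8 adult libraries. Its fold enrichment was 19.3, 9.82, 14.8 and 4.77 in the 4 Thy1 libraries, in the order wild type replicates 1 and 2 and Scml2-KO replicates 1 and 2. In the 4 cKit libraries, in the same order, it was 12.5, 4.63, 12.2 and 5.77. Among 367750 merged regions of all libraries, including those seen in 1 library only, 0.343% were open in 8 of 8 P7 and 0 of 8 adult libraries. Another region inside the gene, at chr6:122739927-122740471, had a peak in 7 of 8 P7 libraries and 1 of 8 adult libraries, and at least 7 P7 and at most 1 adult library was the pattern of 1.92% of regions. The paralog Slc2a1, encoding GLUT1, had promoter peaks in all 16 libraries and the higher fold within each of them.

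Hk1 encodes hexokinase 1, which phosphorylates glucose, and germ cells are known to use alternative first exons of it. The start at chr10:62340421 (minus strand) had peaks in 16 of 16 libraries. Its fold enrichment in P7 cells was 13.1 to 30.1 with a median of 19.2. For the highest promoter peak of the gene at either start, the adult range was 6.39 to 13.5 with a median of 10.9. The summit of the highest peak, measured from the nearest start, lay between 115 and 175 bp after the start in P7 cells and between 49 bp before and 216 bp after it in adult cells.

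The second annotated start of Hk1, at chr10:62379908, had peaks in 0 of 8 P7 and 5 of 8 adult libraries. Its fold enrichment was 6.19 in PS wild type replicate 1 and 6.76 in PS Scml2-KO replicate 1, and both replicates 2 of PS had no peak. In RS it was 11.1 and 4.88 in wild type and 5.30 in Scml2-KO replicate 1, and Scml2-KO replicate 2 had no peak. In RS wild type replicate 1 this was the highest promoter peak of Hk1, since the common start had 6.09. Another place, inside an intron at chr10:62362070-62362726, had peaks in 4 of 4 PS libraries, at 13.9, 6.03, 12.5 and 4.35, and in none of the other 12. Such a pattern was found in 215 of the 367750 regions, or 0.0585%. The 367750 include regions seen in 1 library only, as were 25 of the 35 Hk1 regions. This place was named after its values were seen. Hk1 thus had a start shared by all libraries, a start seen only in adult libraries and an intronic region seen only in PS libraries.

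Aldoart1 is an intronless copy of the aldolase gene Aldoa, on chromosome 4 with its start at 72852634 (minus strand). In PS its promoter peak had a fold enrichment of 13.4 and 4.52 in wild type, and neither Scml2-KO library had a peak. RS values were 19.9 and 10.1 in wild type and 9.08 in Scml2-KO replicate 1, and Scml2-KO replicate 2 had no peak. Of the P7 libraries, Thy1 wild type replicate 1 had a peak at 3.62, whose summit lay 309 bp inside the gene, and the other 7 had none. In adult cells the summits were within 100 bp of the start in 3 of 4 wild-type libraries and 1 of 4 Scml2-KO libraries. In PS wild type replicate 2 the fold of 4.52 belonged to 2 peaks farther into the gene, with summits 788 and 330 bp after the start.

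In all, Aldoart1 had a promoter peak in 5 of 8 wild-type libraries and 1 of 8 Scml2-KO libraries. Counts at least 4 higher in wild type were found for 65 of all genes, or 0.305%, and at least 4 higher in Scml2-KO for 58, or 0.272%. The lists of the adult Scml2-KO libraries without an Aldoart1 peak held 105751, 21878 and 27105 peaks. The wild-type lists with a peak included one of 24751 peaks. With every list limited to its 17813 most significant peaks, Aldoart1 had a peak in 3 wild-type and 0 Scml2-KO libraries.

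Around Aldoart1, 39 other regions lay within 500 kb and none had a peak in at least 4 more libraries of one genotype than of the other. They held 62 peaks in wild-type and 35 in Scml2-KO libraries. A region at chr4:72763614-72764130, 88.8 kb downstream, had peaks in 4 wild-type adult libraries, 1 Scml2-KO adult library and 0 of 8 P7 libraries. Farther off, chr4:72361591-72362383 had peaks in 8 of 8 P7 and 0 of 8 adult libraries. The authors' region labels gave 80 of 89 Aldoart1 peaks as intergenic, as far as 619 kb from the start.

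The related copy Aldoart2, which is not among the 9 genes, was marked by promoter peaks in all 8 adult and none of the 8 P7 libraries. Fisher's exact test, two-sided and adjusted by Benjamini and Hochberg over 3914 genes, gave it an adjusted p of 0.00358, higher in adult cells. Its fold enrichment in PS was 15.5 and 3.52 in wild type and 11.4 and 4.35 in Scml2-KO. RS values were 11.1 and 6.76 in wild type and 19.7 and 5.63 in Scml2-KO. Peaks of Aldoart2 were present in both genotypes. Aldoa itself had peaks in all 16 libraries.

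Gapdh encodes the glyceraldehyde-3-phosphate dehydrogenase of most cells, and its start is at chr6:125165583 (minus strand). It had a promoter peak in every library. In Thy1 cells the fold enrichment was 22.9 and 25.6 (wild type) and 20.9 and 18.3 (Scml2-KO), and in cKit cells 22.0 and 9.77 (wild type) and 19.2 and 8.92 (Scml2-KO). PS values were 6.19 and 5.03 (wild type) and 7.80 and 5.98 (Scml2-KO). RS values were 4.43 and 4.88 (wild type) and 10.2 and 8.66 (Scml2-KO). Within its own list, the P7 peak stood above those of 48.5% to 83.2% of the genes with a promoter peak. In adult libraries the corresponding share was 5.92% to 51.3%. With lists limited to 17813 peaks, Gapdh had a promoter peak in 8 P7 and 3 adult libraries. Folds come from separately called lists, so these ranks are descriptions of each library.

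Gapdhs encodes the sperm form of that enzyme, anchored in the tail, and its start in the authors' annotation is at chr7:30739356 (minus strand). Its promoter had no peak in any of the 8 P7 libraries. PS wild type replicate 1 had one at 5.16, and the other 3 PS libraries had none. In RS the fold enrichment was 6.09 and 5.26 in wild type and 9.46 and 6.93 in Scml2-KO. Gapdhs was therefore marked in 4 of 4 RS libraries, and a peak in 4 of 4 RS and 0 of 8 P7 libraries was found for 231 genes, or 1.08% of all. With lists limited to 17813 peaks, 2 adult libraries had the Gapdhs peak.

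RefSeq puts the first start of Gapdhs at chr7:30739407, from which the printed bases were counted, and not at the authors' chr7:30739356. It gives Gapdhs another start, at chr7:30743681, which lies 4.27 kb upstream of the first RefSeq start. Within 1 kb of it, 0 of 8 P7 and 7 of 8 adult libraries had a peak. At least 7 adult and 0 P7 libraries was the pattern of 0.463% of merged regions. In PS the fold enrichment was 9.81 and 5.03 in wild type and 13.5 in Scml2-KO replicate 1, with no peak in replicate 2. In RS it was 4.43 and 5.26 in wild type and 9.08 and 4.76 in Scml2-KO. The second start thus had peaks in 3 of 4 PS libraries where the first had 1 of 4. The windows of the 2 starts share a run of 107 identical bases, which is longer than a 75-base read, so reads from inside this run cannot be assigned to one start, and how the authors treated such reads is not given in the sources used here. Within the window around the authors' start, summits lay 104 to 494 bp before that start, which is not the start of the printed sequence.

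Pgk2 encodes the phosphoglycerate kinase of meiotic and postmeiotic germ cells, and its start is at chr17:40208609 (minus strand). In PS its promoter peak had a fold enrichment of 23.2 and 10.6 in wild type and 19.8 and 6.52 in Scml2-KO. In RS it was 9.41 and 13.2 in wild type and 11.3 in Scml2-KO replicate 1, and Scml2-KO replicate 2 had no peak. The adult cells of both genotypes therefore carried the peak in 7 of 8 libraries, with the highest values in PS replicate 1.

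In P7 cells the Pgk2 promoter had a peak in 4 of 4 wild-type libraries, at 8.44 and 7.63 in Thy1 and 5.34 and 5.14 in cKit. None of the 4 P7 Scml2-KO libraries had one. A promoter peak in 4 of 4 wild-type and 0 of 4 Scml2-KO libraries at P7 was found for 2 of 21299 genes, or 0.00939%, namely Pgk2 and Gm13003, and the reverse pattern for 0 genes. Over all stages, Pgk2 had a peak in 8 wild-type and 3 Scml2-KO libraries, and 8 genes, or 0.0376%, had at least 5 more wild-type libraries. Pgk2 was picked for this pattern, so no test of it is given here, although the genotype comparison over all genes below included it. The P7 wild-type peaks were near the bottom of their lists, above those of 18.4% and 18.0% of genes with a promoter peak in Thy1 and of 5.98% and 8.75% in cKit. With every list limited to its 17813 most significant peaks, 0 of 8 P7 libraries of either genotype and 7 of 8 adult libraries had a Pgk2 peak, so that the difference between genotypes was 4 against 3 libraries.

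The 4 P7 Scml2-KO lists without a Pgk2 peak held 110680, 52113, 91480 and 17813 peaks, and the shortest wild-type list with it held 32356. Within 500 kb of Pgk2, 24 other regions had peaks and none had the pattern of 4 wild-type and 0 Scml2-KO libraries at P7, although they held 33 peaks in P7 wild-type and 15 in P7 Scml2-KO libraries. The number of meiotic prophase markers with a promoter peak was 0 to 2 in P7 libraries of both genotypes, and that of spermatid markers likewise. Within Thy1, Sycp1 had a peak in both wild-type and neither Scml2-KO library, and Sycp3 in both wild-type libraries and Scml2-KO replicate 1. Within cKit, Sycp1 had a peak in replicate 1 of both genotypes, and Sycp3 in Scml2-KO replicate 1 only. The part of these cells in the Pgk2 pattern was not tested.

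The position of the Pgk2 peak was shared by most libraries. In 3 of the 4 P7 wild-type libraries, and in all 7 adult libraries with a peak, a summit lay within 100 bp of the start, 24 to 70 bp before it, over or beside the CCAAT and GGCGGG letters printed above. In cKit wild type replicate 2 the only peak had its summit 441 bp after the start, inside the gene. At the start itself, the P7 count was therefore 3 wild-type and 0 Scml2-KO libraries.

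**Figure D2:**
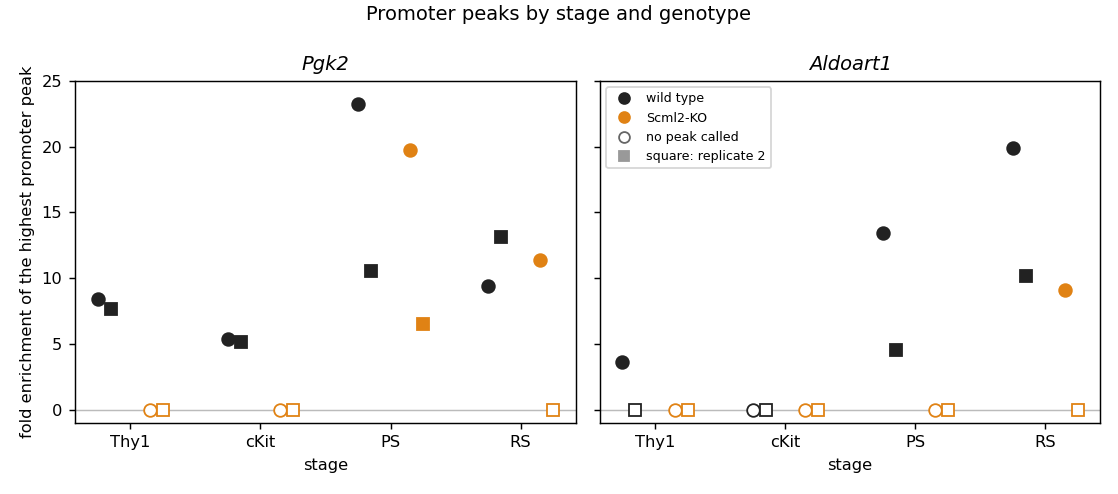
Fold enrichment of the highest promoter peak (vertical axis) of Pgk2 and Aldoart1 by stage (horizontal axis), with 1 point per library, black for wild type and orange for Scml2-KO; open points at 0 had no peak. All 4 P7 Scml2-KO points of Pgk2 are open while the wild-type points lie between 5.14 and 8.44, and 1 of 8 Scml2-KO points of Aldoart1 is filled.

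Ldha encodes the lactate dehydrogenase subunit common in muscle and most dividing cells, and it has starts at chr7:46845804 and chr7:46847082 (plus strand). It had promoter peaks in all libraries, at 6.82 to 18.5 in P7 cells (median 11.1) and at 4.33 to 17.2 in adult cells (median 6.61). The first start had a peak within 1 kb in 16 of 16 libraries, and the second in 7 of 8 P7 and 3 of 8 adult libraries. The 2 windows overlap, so a wide peak can count at both. Median peak length was 752.5 bp in P7 and 331.5 bp in adult libraries.

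Ldhc, the germ cell lactate dehydrogenase subunit, lies next to Ldha on the same strand with its start at chr7:46861263. In PS its promoter peak had a fold enrichment of 13.4 and 8.04 in wild type and 19.8 and 7.06 in Scml2-KO. In RS it was 8.31 and 4.88 in wild type and 11.3 in Scml2-KO replicate 1, with no peak in replicate 2. At P7, replicate 1 had a peak in each of the 4 groups, at 3.62 and 4.59 in Thy1 wild type and Scml2-KO and at 4.75 and 4.26 in cKit, and replicate 2 had none. Counted by window alone, Ldhc was thus open in 4 P7 and 7 adult libraries, and in 0 and 5 with lists limited to 17813 peaks.

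The P7 and the adult peaks of Ldhc were at different places. All 4 P7 summits lay 551 to 598 bp before the start. No P7 library had a summit within 300 bp of it, whereas 7 of 8 adult libraries did, 31 to 252 bp before the start, mostly within the 250 bases printed above. Both PS wild-type libraries also had a peak with its summit more than 300 bp before the start. In replicate 1 this summit lay 564 bp before the start, among the P7 positions, and in replicate 2 it lay nearer the start, at 363 bp. At the start of Ldhc, then, the count was 0 of 8 P7 and 7 of 8 adult libraries. This split by position was made after the values were seen.

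Pdha2 encodes the germ cell form of the catalytic subunit of pyruvate dehydrogenase, in an intronless gene on chromosome 3 with its start at 141212355 (minus strand). In PS its promoter peak had a fold enrichment of 22.7 and 13.6 in wild type and 28.6 and 9.78 in Scml2-KO. The RS values were 24.4 and 11.3 in wild type and 25.0 and 6.50 in Scml2-KO. Thy1 values were 7.84 and 4.91 (wild type) and 9.17 and 4.77 (Scml2-KO). The cKit values were 10.1 and 6.17 (wild type) and 12.2 in Scml2-KO replicate 1, with no peak in replicate 2. Peaks were thus present in 15 of 16 libraries, with a median of 7.84 over 7 P7 libraries and 18.1 over 8 adult libraries. With lists limited to 17813 peaks, 3 P7 and 8 adult libraries had one.

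The Pdha2 peak was not at the start but inside the gene. Its highest summit lay 454 to 701 bp after the start, at a median of 523 bp over 15 libraries. Another, separate peak before the start was seen in RS wild type replicate 2 and RS Scml2-KO replicate 1. The median peak was 464 bp long in P7 and 1036.5 bp in adult libraries. Of the 210 peaks that the authors assigned to Pdha2, 188 were intergenic, as far as 1500 kb away.

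**Figure D3:**
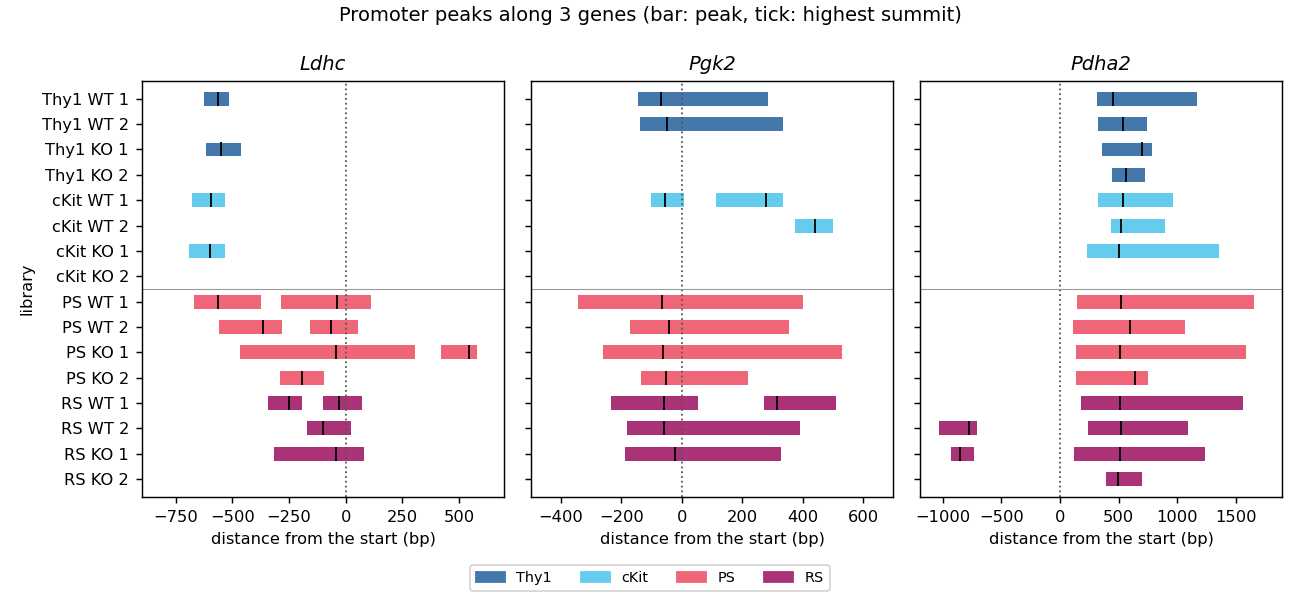
Promoter peaks of Ldhc, Pgk2 and Pdha2 in each library (rows), drawn by their distance from the start in bp along the direction of transcription (horizontal axis); bars are peaks coloured by stage and ticks their highest summits. The P7 peaks of Ldhc stand 551 to 598 bp before the start, the Pgk2 summits mostly 24 to 70 bp before it, and the Pdha2 summits 454 to 701 bp after it.

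The parent genes and sister enzymes gave a scale within each library, since both promoters are then read from the same list. In all 8 P7 libraries the parent or sister gene had the higher fold for every pair examined: Pgk1, Pdha1, Ldha, Ldhb, Gapdh, Aldoa and Slc2a1. In adult cells, Pdha2 was above Pdha1 in 8 of 8 libraries, Ldhc above Ldhb in 7 and above Ldha in 6. Pgk2 was above Pgk1 in 3 of 8, Gapdhs above Gapdh in 2, Aldoart1 above Aldoa in 2 and Slc2a3 above Slc2a1 in 0. Because several of the 9 genes were chosen for being high in adult cells, this order is a description.

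The 2 X-linked parent genes differed in their values in adult cells. Pgk1 had a promoter peak in all 16 libraries, and its fold in PS was 29.9 and 15.6 in wild type and 13.5 and 5.43 in Scml2-KO. Its RS values were 15.5 and 4.13 in wild type and 12.9 and 7.36 in Scml2-KO. Pdha1 had no peak in PS wild type replicate 2 and PS Scml2-KO replicate 1, and its other 6 adult folds lay between 3.76 and 5.20. Its P7 folds lay between 8.39 and 32.6. Ldhb, the lactate dehydrogenase subunit common in heart, had peaks in 8 P7 and 2 adult libraries.

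**Figure D4:**
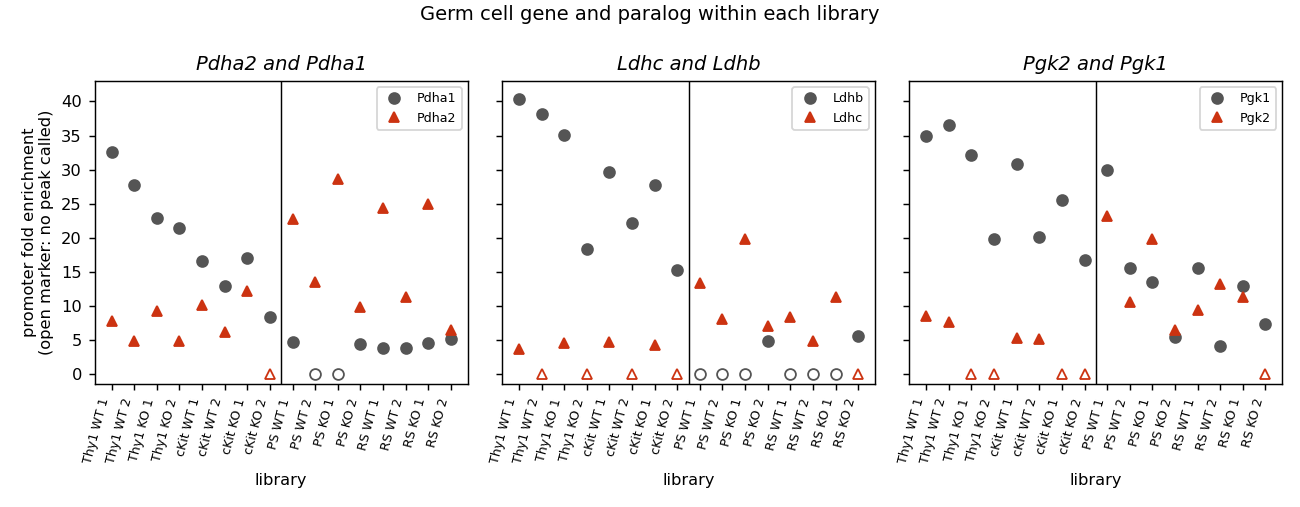
Promoter fold enrichment (vertical axis) of Pdha2, Ldhc and Pgk2 (red triangles) and of Pdha1, Ldhb and Pgk1 (grey circles) within each library (horizontal axis, P7 left of the line and adult right); open markers at 0 had no peak. The grey circles are higher in all 8 P7 libraries, and the red triangles are higher in 8, 7 and 3 of 8 adult libraries.

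The other genes of the pathway were read from 5 fixed lists: sister enzymes, other glycolysis, glucose and lactate transport, pyruvate oxidation, and germ cell forms of energy genes. These lists were drawn up with earlier results of these data known, so they are not an independent set. Of 81 genes listed, 80 had an annotated start, and 39 of these had a promoter peak in all 16 libraries. Hk3, Hkdc1, Pfkfb1, Pklr and Slc16a8 had none in any library. Fisher's exact test over all genes could test 18 of the 80, those with peaks in 5 to 11 libraries. It called 6 higher in adult cells, where 8.46% of all 3914 tested genes were called, and 4 higher in P7 cells, where 24.7% were. The median gene of the 80 had peaks in 8 P7 and 8 adult libraries, against 7 and 6 over all genes.

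The genes higher in adult cells included Aldoart2, given above, Gykl1, Acsbg2, Atp1a4 and Slc2a5. Gykl1, a germ cell glycerol kinase, had peaks in 8 adult libraries and 1 P7 library (Fisher's exact test, adjusted p = 0.00879). Its adult folds were 22.7, 8.04, 19.2 and 4.89 in PS, in the order of wild type and Scml2-KO replicates used above, and 14.9, 7.14, 29.1 and 4.76 in RS. Slc2a5, the fructose transporter GLUT5, had peaks in 7 adult libraries and 1 P7 library (Fisher's exact test, adjusted p = 0.0305). Its fold was 24.3, 10.1, 26.0 and 11.4 in PS and 6.64, 4.51 and 6.06 in the 3 RS libraries with a peak. Acsbg2, an acyl-CoA synthetase, and Atp1a4, the sperm sodium pump, had peaks in 6 adult and 0 P7 libraries each (Fisher's exact test, adjusted p = 0.0247). The call of Acsbg2 was lost with lists of equal length, and that of Atp1a4 when only peaks with a fold of at least 5 were kept. Of 27 alternatives run, the call was lost in 7 for Acsbg2, 6 for Atp1a4, 4 for Slc2a5, 3 for Gykl1 and 2 for Aldoart2. With no filter on the genes tested, 2 of the 10 calls in both directions remained, those of Aldoart2 and Gykl1.

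The 4 genes higher in P7 cells were Ldhb, Pfkl, Slc2a9 and Slc16a7. Pfkl, the liver form of phosphofructokinase, had peaks in 8 P7 and 2 adult libraries, as did Ldhb (Fisher's exact test, adjusted p = 0.0247 each). Slc2a9, a urate and hexose transporter, had peaks in 6 P7 and 0 adult libraries (Fisher's exact test, adjusted p = 0.0247), and its call was lost with lists of equal length. Slc16a7, the pyruvate and lactate carrier MCT2, had 7 and 1 (Fisher's exact test, adjusted p = 0.0305). Of 27 alternatives run, the call was lost in 5 for Slc2a9, 4 for Slc16a7 and 3 each for Ldhb and Pfkl. Somatic markers also had more peaks in P7 cells, as given above, and their part in these calls was not tested.

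By list, other glycolysis had 1 call in each direction among 23 genes, of which 6 could be tested. Sister enzymes had 1 in each direction among 11 genes, with 2 tested. Transport had 1 call higher in adult and 2 higher in P7 cells among 16 genes, with 5 tested. Germ cell energy genes had 3 of 15 called higher in adult cells and 0 in P7 cells, with 4 tested. Pyruvate oxidation had 0 calls among 15 genes, of which 1 could be tested and 14 had peaks in all 16 libraries. The shares over all genes given above are of tested genes. The largest differences without a call were those of Cox8c, a cytochrome oxidase subunit, with 1 P7 and 6 adult libraries (Fisher's exact test, adjusted p = 0.0721), and of Pgam2, a phosphoglycerate mutase, with 0 and 4, too few to be tested. In the other direction they were Slc2a10, with 6 and 1 (adjusted p = 0.0721), and Pdk4, a kinase that inhibits pyruvate dehydrogenase, with 8 and 3 (Fisher's exact test, adjusted p = 0.0546). Of 12 housekeeping genes, 10 had peaks in all libraries, and none could be tested.

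**Figure D5:**
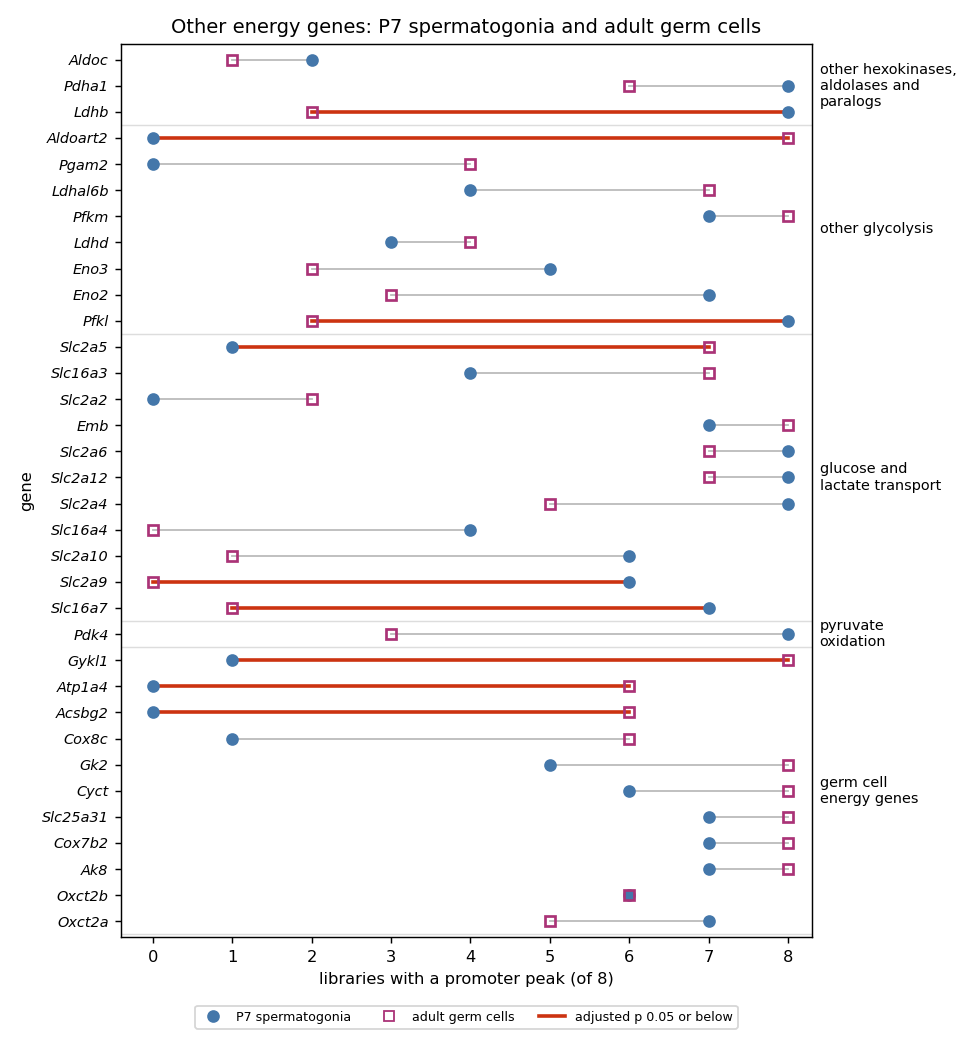
Number of P7 (filled circles) and adult libraries (open squares) with a promoter peak, each of 8 (horizontal axis), for fixed energy genes with a peak in some but not all libraries (vertical axis, grouped by list); red lines mark an adjusted p of 0.05 or below. Red lines end at an adult count of 6 to 8 for the 5 genes drawn as higher in adult cells, and at an adult count of 0 to 2 for the 4 higher in P7 cells.

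Genotype was compared within stage by an exact permutation test. Of 813 genes able to reach an unadjusted p of 0.05, 0 passed after adjustment (0.0% called, lowest adjusted p 1.0), while 14 had an unadjusted p under 0.05. Pgk2, picked for its genotype pattern, is among these 14, and its place there is not a test of it. Of the fixed energy genes 3 could be tested, with 0 called and 0 under an unadjusted p of 0.05. The smallest unadjusted p of any gene was 0.00926 (exact permutation test within stage), and a single gene at that value cannot pass adjustment over 813 genes. The count of 0 was thus close to fixed beforehand. A difference between genotypes in the energy genes was therefore not detectable at this number of libraries.

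For the 6 genes with a peak in some but not all libraries, the 3 genes with the most similar promoter folds were found by Spearman's rho over the 16 libraries. The lists differed in length and a missing peak counted as 0, and the part of list length in these values was not tested. For Pgk2 they were Ppp1r13b (0.93), 4930430A15Rik (0.92) and Calm2 (0.91), of which 4930430A15Rik had peaks in 7 wild-type and 3 Scml2-KO libraries and the other 2 genes in all 16. For Pdha2 they were Gm13718, Asz1 and Gm5136 (0.96 each). For Ldhc they were Tex19.1 (0.98) and 4930526L06Rik and Ms4a13 (0.97 each), which had peaks in 4 P7 and 7 adult libraries as Ldhc did. The starts of 4930526L06Rik and Ms4a13 lie at chr19:11196817 and chr19:11196723, so their promoter windows overlap and they are not separate cases. For Gapdhs, 4930520P13Rik, 4930565N06Rik and 4933436H12Rik reached 0.996 each with peaks in 5 adult and 0 P7 libraries. For Aldoart1, 1700025K24Rik, 4930529K09Rik and 4930556G01Rik reached 0.945 each, with peaks in 4 wild-type and 1 Scml2-KO adult library and in no P7 library. For Slc2a3 they were Ccdc28b, Gm6034 and H2-T22 (0.96 each), with peaks in 8 P7 and 2 adult libraries. Gm6034 and H2-T22 start at chr17:36042961 and chr17:36042692, so their windows overlap as well. Ties in rho were broken by symbol.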

How the data were processed

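ATAC-seq peak lists of 16 libraries, called by the authors for each library, were analysed on mm10; Bowtie 1.1.1 and MACS2 2.1.0.20140616 are named in the submitters' processing notes, with options not given in the sources used here. A reaction took about 500000 spermatogonia, 250000 PS or 1000000 RS, and reads were single and 75 bases long, per the labels. The authors deposited for each summit a pileup (a coverage signal), a fold enrichment (a ratio over background), −log10 p and −log10 q, and the peak length in bp. Folds are the authors' values and only describe or rank peaks within a list. Reads per library are unknown. File names and titles disagreed on replicate numbers, and titles were used.

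The 576 mitochondrial lines of 1431525 were dropped, and lines of the same peak were joined into 1111092 peaks; 0 pairs of lists were identical. Starts (23516 positions, 21299 genes) came from the authors' annotation, with names shared by several genes matched to RefSeq genes (GRCm38.p6) by position. A promoter peak overlapped a start ± 1 kb by at least 1 bp.

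P7 (8) and adult (8) libraries were compared per gene by a two-sided Fisher exact test on the number with a promoter peak, for genes with peaks in 5 to 11 libraries. Genotype was tested by an exact permutation test within stage (1296 arrangements). Both were adjusted by Benjamini and Hochberg at 0.05 (Python 3.11.15, scipy 1.17.1) and tested on simulated data. The members and lists were chosen with earlier results of these data known. Named were the 9 genes, their parent genes, every called gene of the fixed lists (a few genes of these lists enter the counts but are not reported here by name), at most 10 per direction and test, the 2 per direction with the largest difference not called, and the 3 most similar genes of each member. Alternatives changed the peak threshold, list length, window, overlap, filter, libraries and block. Gm13003, the split of Ldhc peaks by position, and the regions and motifs named were chosen after their values were seen.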

Additional observations from a re-analysis of the deposited data

How the results depend on the processing

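No called energy gene reversed direction under any of the alternatives run. For the members and the counts, only a change in size was recorded. Genes called between P7 and adult cells numbered 1298. They became 2124 with lists of equal length, 2229 with the replicate block, 623 with no filter on genes tested, and 0 with replicate 2 or with Scml2-KO libraries alone, where every gene separated completely has the same smallest Fisher exact p and all pass or fail together. Leaving out 1 library gave 1323 to 2406, the highest without cKit Scml2-KO replicate 2. Of the fixed energy genes 10 were called. This became 6 with wild type alone, 2 with no filter, 0 with replicate 2 or Scml2-KO alone, and 10 to 13 without 1 library, and 12 with the block. The members with peaks in more adult than P7 libraries, 5 in all, were 3 with replicate 1 alone and 3 with wild type alone, and 4 to 5 without 1 library. Genotype calls stayed at 0 wherever a gene could be tested, and subsets of replicates or stages allowed no test. The labels do not say that a replicate number marks a shared litter, batch or day, and not every pair of groups correlated above 0.1, so the libraries were not treated as paired. Deviations from the group means correlated at −0.0572 to 0.302 over 28 pairs of groups, above 0.1 in 8 and above 0 in 14.

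Several members' values moved with list length. With equal lists, the adult minus P7 difference was 87.5 percentage points for Pgk2 in place of 37.5, 62.5 for Pdha2 in place of 12.5, 25 for Gapdhs in place of 62.5, −62.5 for Gapdh in place of 0, −25 for Slc2a3 in place of −87.5, and 62.5 for Ldhc in place of 37.5. For Ldhc it was 75 with only peaks of −log10 q of at least 5, with only peaks of fold of at least 5, and with the window of 500 bp, 75 with replicate 2 alone and 0 with replicate 1 alone. The Scml2-KO minus wild-type difference of Pgk2 was −62.5 points over all libraries, −100 at P7, −25 in adult cells and −12.5 with equal lists. Counting only peaks that carry the member's own name was added after the data were seen. What limits these values is that depth is unknown, that each group holds 2 libraries, and that a missing peak can reflect a short list. The causes of these changes were not tested.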
